A study of Mus musculus with 10 samples.

Results

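The comparison set 1 library of translocation junctions from cells given IFN together with etoposide against 2 libraries from cells given etoposide alone. All rows on chromosomes 1 to 19 and X were used, which came to 6838 of 68338 junctions in the 10 libraries of the series. Prey were the junctions more than 1 Mb from the bait break at chr6:41554973 (mm10), which lies in the T-cell receptor beta locus, chr6:40891296-41558371. They numbered 3622 in IFN with etoposide, 3721 in etoposide replicate 2 and 10519 in etoposide replicate 1. Etoposide replicate 2 was the first control because its read names place it in the same sequencing run. The labels name etoposide replicate 1 as the control of this library, and it was used as the second control.

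The method, HTGTS, maps translocations genome-wide: it starts at 1 fixed break (the bait) and reads the DNA that was ligated to its broken end (the prey). The cells were pre-B cells transformed with the Abelson virus, of strain C57BL/6 and genotype LIG4-/-, so all 3 libraries lacked the ligase of classical end joining. All 3 were arrested in G1 with 3 mM imatinib (the unit as the labels give it) for 48 h, and a zinc-finger nuclease that cuts the bait was induced with doxycycline at 1 µg/ml from 24 h onward. Etoposide was added at 50 µM, washed out at 2.5 h and followed by 12 h of recovery in all 3. IFN is given only as that abbreviation, and its type, dose and time are not given in the sources used here. Nothing in the labels says whether the libraries came from separate cultures or cell lines, so the gap between the etoposide libraries may be technical.

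Etoposide traps topoisomerase II on the DNA it has cut, and topoisomerase II relieves the twist that builds up ahead of and behind transcribing polymerases. Interferons bind surface receptors that activate JAK kinases and STAT transcription factors. These switch on interferon-stimulated genes, many of which code for antiviral proteins, through a short promoter element called the interferon-stimulated response element.

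Some of the junctions of IFN with etoposide in interferon-stimulated genes are first shown as sequence. Each line gives the read 5′ to 3′ across the junction. The last 20 bait bases are in lower case, and the 30 prey bases that follow them are in capitals. Bases that bait and prey share are among those in lower case. The first set holds the 5 junctions of IFN with etoposide that lay within 278 bp of each other in Usp18, shown because they began at different prey positions and had different bait ends.
Usp18 junction at chr6:121261398: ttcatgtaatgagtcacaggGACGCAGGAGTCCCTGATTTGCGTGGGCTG
Usp18 junction at chr6:121261462: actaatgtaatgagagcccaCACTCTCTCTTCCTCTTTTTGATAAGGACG
Usp18 junction at chr6:121261520: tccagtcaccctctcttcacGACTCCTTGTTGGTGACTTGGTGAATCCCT
Usp18 junction at chr6:121261545: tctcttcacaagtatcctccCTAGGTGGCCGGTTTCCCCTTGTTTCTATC
Usp18 junction at chr6:121261675: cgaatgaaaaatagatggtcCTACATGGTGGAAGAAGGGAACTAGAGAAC
The second set holds the 3 junctions in Ifit2, shown because neither etoposide library had a junction in that gene.
Ifit2 junction at chr19:34556064: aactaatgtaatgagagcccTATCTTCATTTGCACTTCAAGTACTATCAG
Ifit2 junction at chr19:34570697: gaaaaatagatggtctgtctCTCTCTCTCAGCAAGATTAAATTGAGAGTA
Ifit2 junction at chr19:34573510: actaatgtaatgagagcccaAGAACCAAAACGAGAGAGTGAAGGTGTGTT
All 8 prey sequences shown were aligned to the plus strand. The 5 Usp18 reads shared 0 to 3 bases between bait and prey at the junction, and each Ifit2 read shared 3.

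Promoter sequence was available for 78 of the 95 interferon-stimulated genes, from RefSeq (GRCm38.p6), as the 250 bases before and 50 after a listed start. The core of the response element, searched as GAAANNGAAA on both strands with overlapping matches counted, was present for 36 of the 78 (46.2%) and for 687 of 17274 protein-coding genes (3.98%). It was present for 8 of 14 members joined in IFN with etoposide and for 28 of 64 members not joined there. The 100-base stretches below belong to members joined in this library, in the direction of transcription, with the matches in capitals.
Gbp7 promoter, plus strand, chr3:142530236-142530335: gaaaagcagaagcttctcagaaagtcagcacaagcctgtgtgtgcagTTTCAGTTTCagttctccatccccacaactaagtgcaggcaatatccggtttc
Ifi203 promoter, minus strand, chr1:173942493-173942592: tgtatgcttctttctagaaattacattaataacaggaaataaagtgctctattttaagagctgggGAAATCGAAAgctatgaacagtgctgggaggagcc
Irgm1 promoter, minus strand, chr11:48871421-48871520: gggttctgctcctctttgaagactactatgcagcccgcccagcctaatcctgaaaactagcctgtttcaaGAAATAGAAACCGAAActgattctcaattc
Parp11 promoter, plus strand, chr6:127446740-127446839: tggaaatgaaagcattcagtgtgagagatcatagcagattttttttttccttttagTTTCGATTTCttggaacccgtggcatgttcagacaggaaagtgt
A match describes these letters and is not evidence of a bound site. Usp18 has no entry in the promoter table.

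Interferon-stimulated genes took a larger share of prey in IFN with etoposide than in either etoposide library. Of prey outside antigen receptor loci, 48 of 3287 lay within a member of the list or 2 kb of it, or 1.46% (exact 95% Clopper-Pearson interval 1.08 to 1.93). The share was 15 of 3296 in etoposide replicate 2, or 0.455% (0.255 to 0.750), and 40 of 10307 in etoposide replicate 1, or 0.388% (0.277 to 0.528). The ratio was 3.21 (95% interval 1.80 to 5.72) against replicate 2 and 3.76 (2.48 to 5.71) against replicate 1. The etoposide libraries themselves differed by a ratio of 0.853 (0.472 to 1.54). Intervals here and below cover counting error only and not the spread between cultures. The list was chosen with earlier results of these data known and receives no p-value. With 1 library against 2, the exact two-sided permutation test cannot go below p = 0.333.

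**Figure D1:**
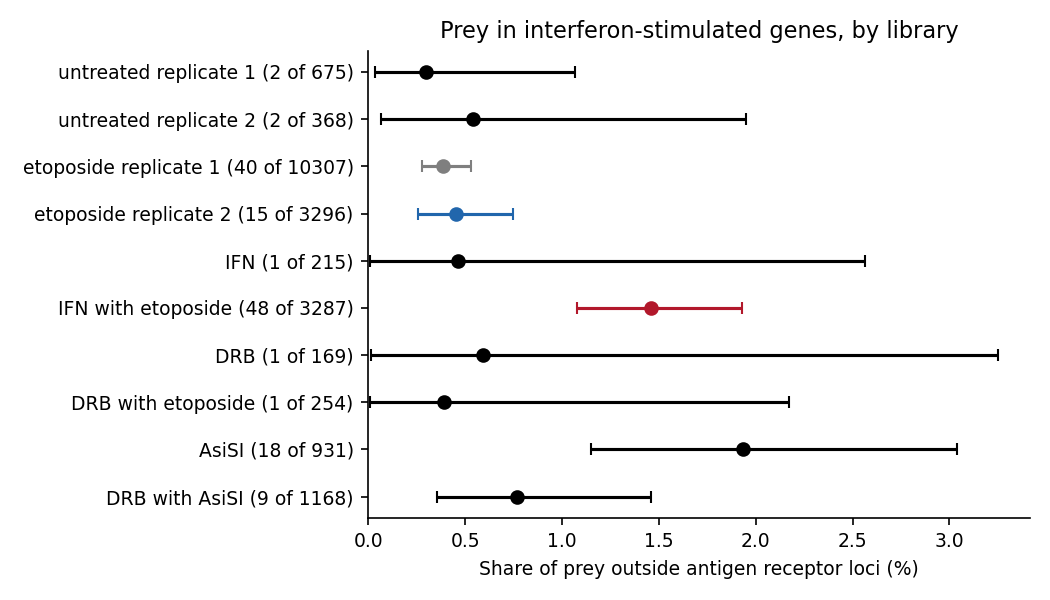
Share of prey outside antigen receptor loci that fell in interferon-stimulated genes (%), in each of the 10 libraries, with exact 95% intervals and the counts beside each name. IFN with etoposide stands at 1.46%, above both etoposide libraries, and the IFN library without etoposide holds 1 of 215. The AsiSI library stands at 1.93%, with 16 of its 18 junctions in Zc3hav1.

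In the other libraries the list was thinly covered. IFN without etoposide had 1 of 215 prey in it, and the untreated libraries had 2 of 675 and 2 of 368, with upper 95% bounds of 2.56%, 1.07% and 1.95%. At that depth IFN without etoposide could not be told from IFN with etoposide. The AsiSI library, in which a restriction enzyme was induced in place of etoposide, had 18 of 931, of which 16 were in Zc3hav1. Per length, the list carried 540 junctions per Mb per 100000 prey in IFN with etoposide, 168 in etoposide replicate 2 and 143 in etoposide replicate 1. All protein-coding genes carried 63.2, 64.9 and 64.0. A density above that of all genes was not particular to the list. Immediate-early genes carried 613, 437 and 531, and highly expressed housekeeping genes 501, 167 and 479.

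The difference was present on and off the bait chromosome. On chromosome 6, 32 of 1283 prey in IFN with etoposide were in list members, against 9 of 1250 and 26 of 3877 in etoposide replicates 2 and 1, which gave ratios of 3.46 (95% interval 1.66 to 7.23) and 3.72. On the other chromosomes there were 16 of 2004, against 6 of 2046 and 14 of 6430, with ratios of 2.72 (1.07 to 6.94) and 3.67. Without Zc3hav1, which had the most junctions, the counts were 36, 12 and 23, and the ratio was 3.01 (1.57 to 5.77) against replicate 2 and 4.91 (2.91 to 8.27) against replicate 1. Leaving out Usp18, Herc6 or Parp11 in turn gave 3.01, 3.32 and 3.39 against replicate 2. These omissions were chosen after seeing the data. In the flanks between 2 and 100 kb from members, outside the genes themselves, the shares were closer, at 1.49%, 1.24% and 1.33%.

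Of the 95 members found as protein-coding genes among 98 listed, 31 had a junction in at least 1 of the 3 libraries. The remaining 3 (Mx1, Mx2 and Oas1b) are listed as transcribed pseudogenes in the gene table and were not counted. Among the 31, the share of prey was above both etoposide libraries for 17 and below both for 1. Over all genes with a junction in any of the 3, it was above both for 27.3% and below both for 10.7% of 5068. Of the 17 members, 11 entered only through their 14 junctions in IFN with etoposide and so had to lie above both, and these counts are a description only. The 11 were among 18 members joined in IFN with etoposide, while over all genes 661 of 1603 joined there (41.2%) had no junction in either etoposide library. Conversely, 13 of the 20 members joined in an etoposide library were not joined in IFN with etoposide, against 3465 of 4407 genes (78.6%). None of the 13 had more than 2 junctions.

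**Figure D2:**
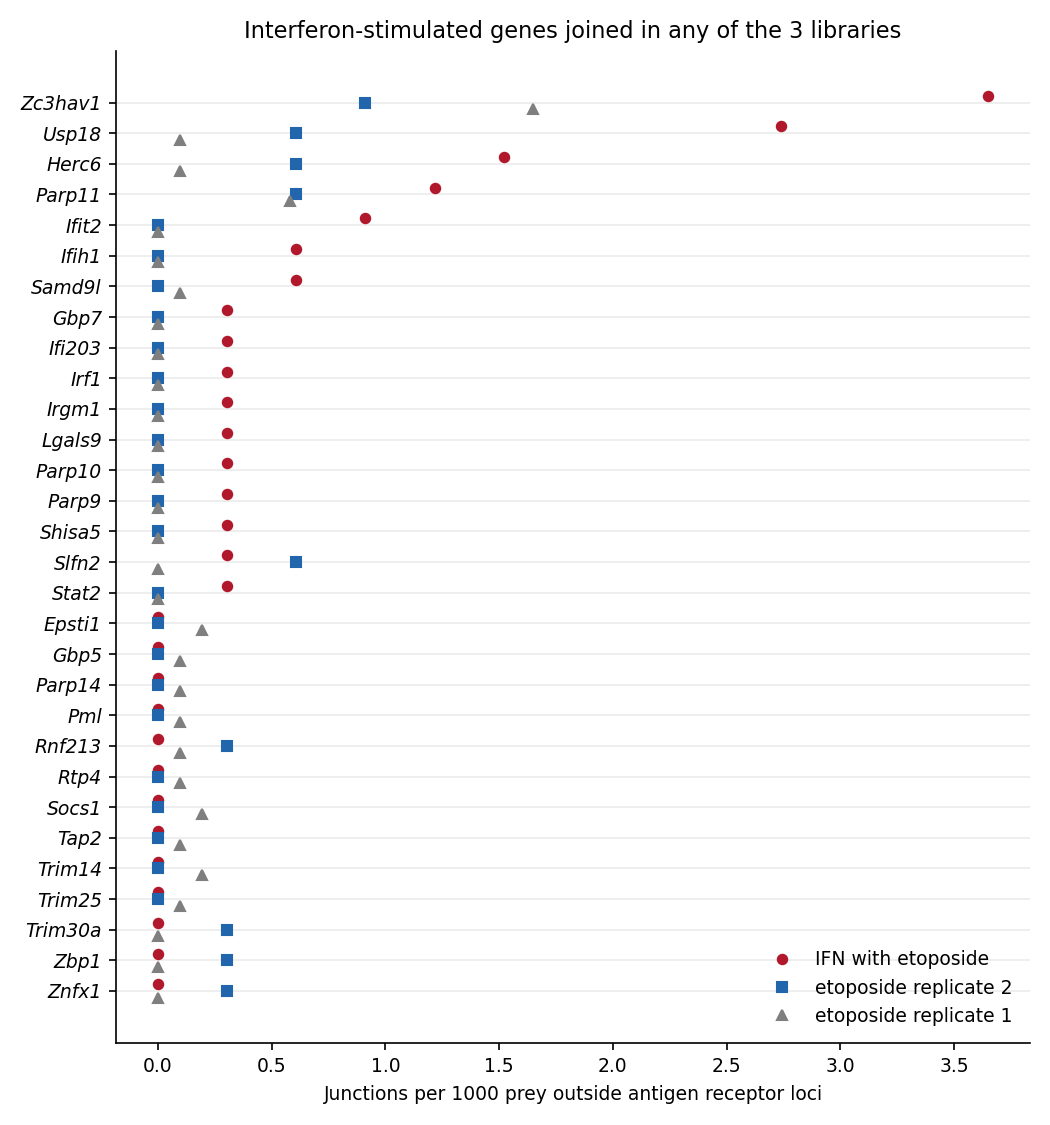
Junctions per 1000 prey outside antigen receptor loci (horizontal axis) for 30 interferon-stimulated genes joined in any of the 3 libraries. Points are single libraries: IFN with etoposide lies highest for Zc3hav1, Usp18, Herc6, Parp11 and Ifit2, and 10 of the 17 plotted members that it joined rest on 1 junction.

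The 5 genes of ISG15 conjugation and removal held 14 junctions in IFN with etoposide, 4 in etoposide replicate 2 and 3 in etoposide replicate 1, from 3287, 3296 and 10307 prey. Usp18 (chr6:121245906-121270917), the protease that removes ISG15 and also dampens interferon receptor signalling, had 9, 2 and 1 junctions. Herc6 (chr6:57580992-57665136), the main ISG15 ligase of the mouse, had 5, 2 and 1. Isg15 itself and Uba7, its activating enzyme, had none in any of the 3, and Trim25 had 1, in etoposide replicate 1.

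Usp18 was the only gene whose share passed Fisher's exact test against an etoposide library, and it did so against replicate 1 only. Per 1000 prey it had 2.74 junctions in IFN with etoposide, 0.607 in etoposide replicate 2 and 0.0970 in etoposide replicate 1. The log2 odds ratio was 4.32 against replicate 1 (Fisher's exact test, adjusted p = 0.00344 over 157 genes) and 1.93 against replicate 2 (adjusted p = 0.999). Usp18 reached the minimum of junctions for testing only with those of IFN with etoposide, so its call against replicate 1 is a description only. The remaining 7 libraries had 0 junctions in Usp18. All 9 junctions were on the plus strand, as were the 3 in the etoposide libraries. Of prey on chromosome 6 toward the telomere from the bait, where Usp18 lies, 50.9% were on the plus strand in IFN with etoposide.

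The cluster of 5 Usp18 junctions lay at chr6:121261398-121261675, between 15.492 and 15.769 kb from the lower-numbered end of the gene. The nearest junction in an etoposide library was in replicate 2, at 14.981 kb. Whether the cluster lies in an exon or an intron was not analysed here. The neighbourhood of Usp18 was also more often joined: within 250 kb but outside the gene there were 17, 8 and 29 junctions, which was 5.17, 2.43 and 2.81 per 1000 prey. That was 2.13-fold and 1.84-fold higher than in etoposide replicates 2 and 1. Around Herc6 the count was 6, 1 and 19, or 1.83, 0.303 and 1.84 per 1000 prey, which was above replicate 2 only. Around Zc3hav1 it was 12, 22 and 30, and around Parp11 7, 8 and 26. The part of these neighbourhoods in the counts within the genes was not tested.

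**Figure D3:**
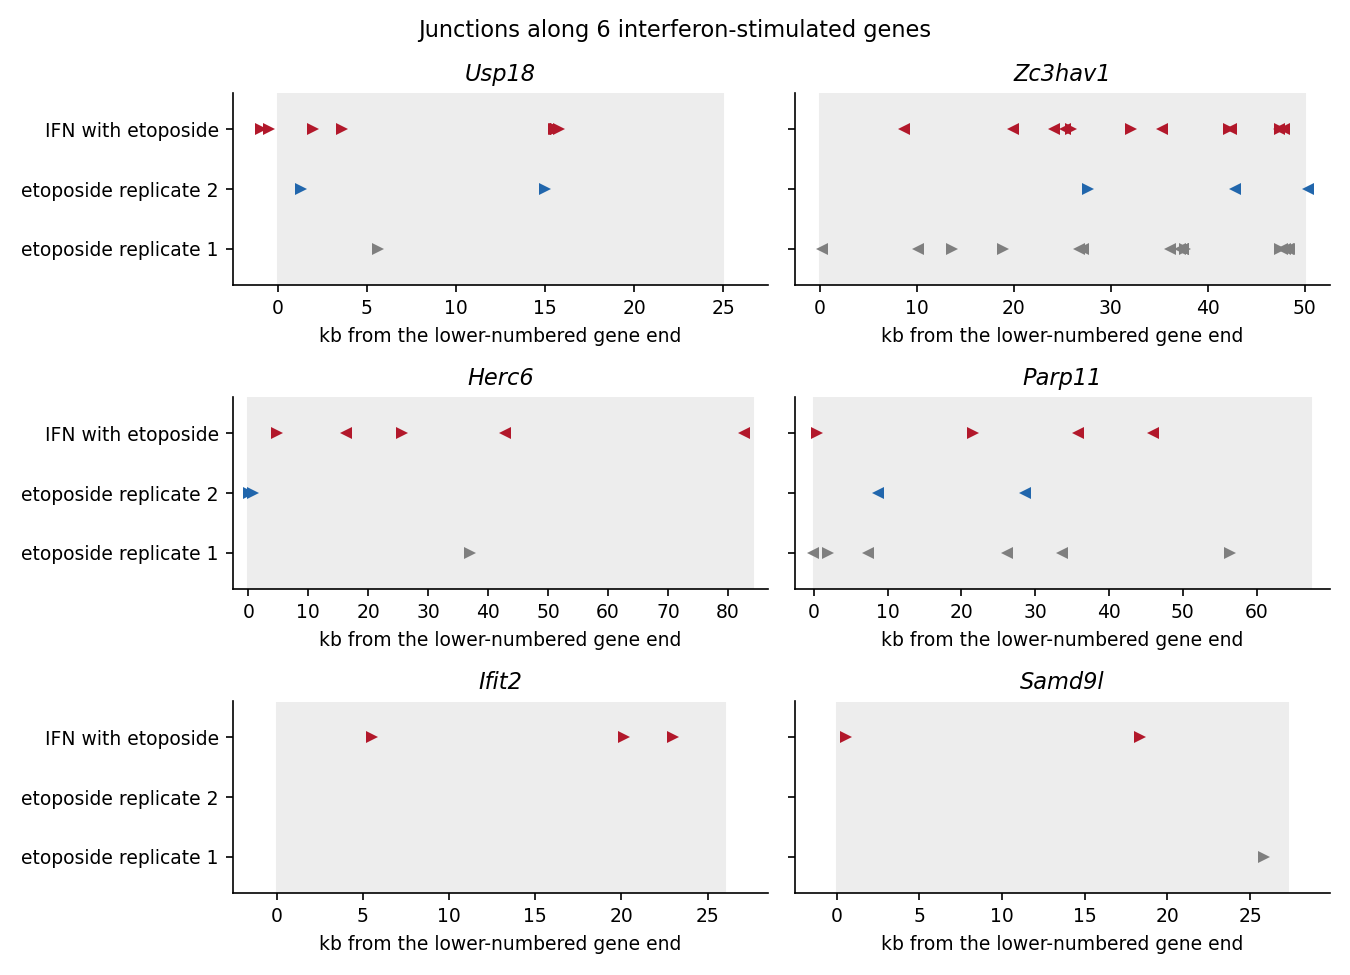
Positions of junctions along 6 interferon-stimulated genes, in kb from the lower-numbered gene end, with the gene body shaded. Rows are IFN with etoposide and etoposide replicates 2 and 1, and triangles point right for prey on the plus strand and left for the minus strand. In Usp18 all 9 junctions of IFN with etoposide point right and 5 lie between 15.492 and 15.769 kb.

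Antiviral effectors held 19 junctions in IFN with etoposide, 5 in etoposide replicate 2 and 19 in etoposide replicate 1. Zc3hav1 (chr6:38305286-38355352), a zinc-finger protein that binds viral RNA, supplied 12, 3 and 17 of these. It is 3.22 Mb from the bait, and it was joined in the AsiSI libraries as well, with 16 junctions and, with DRB, 8. Its log2 odds ratio was 1.84 against replicate 2 and 1.17 against replicate 1, with adjusted p = 0.999 and 0.833 in Fisher's exact test. Ifit2 (chr19:34550550-34576534), which binds RNA and restricts translation, had 3, 0 and 0 junctions, at 5.514, 20.147 and 22.960 kb along the gene. Samd9l had 2, 0 and 1 junctions, Shisa5 1, 0 and 0, and Slfn2 1, 2 and 0. Apart from Zc3hav1, none of these had enough junctions to be tested.

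The other roles held fewer junctions. Sensors of RNA and DNA held 3, 2 and 0 over 9 members. The RNA sensor Ifih1 had 2 junctions in IFN with etoposide and 0 in both etoposide libraries, and Ifi203 had 1, 0 and 0, while Zbp1 and Znfx1 had 0, 1 and 0 each. Among PARP family genes, which add ADP-ribose, Parp11 (chr6:127446830-127514233) had 4, 2 and 6 junctions, and Parp9 and Parp10 had 1, 0 and 0 each. Parp12, 2.45 Mb from the bait, had none in any of the 10 libraries. The transcription factor genes Stat2 and Irf1 had 1 junction each in IFN with etoposide and 0 in both etoposide libraries. Interferon-inducible GTPases had 2, 0 and 1 junctions, in Gbp7 and Irgm1 and, for etoposide replicate 1, Gbp5. Genes of antigen processing, which load peptides on MHC class I, had 0, 0 and 1. The 26 members assigned to none of these roles held 1, 2 and 8 junctions.

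Apart from the cluster in Usp18, the junctions of IFN with etoposide within members were spread along the genes. All 48 were at different positions. Of 36 in genes whose strand was known, 3 lay within 2 kb of the start, against 7 of 12 in etoposide replicate 2 and 7 of 33 in etoposide replicate 1. The strand of Usp18 was not known, so its 9, 2 and 1 junctions are left out of these counts. Other members without a known strand, among them Parp9, Parp10, Parp14, Rtp4, Tap2, Trim14 and Zbp1, are left out as well. In Herc6 the 5 junctions of IFN with etoposide lay from 4.752 to 82.670 kb along the gene, while both of etoposide replicate 2 lay in its first 0.738 kb. In Zc3hav1 the 12 lay from 2.228 to 41.403 kb from the start.

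Over genes of all kinds, few passed a test of their share of prey, and at these counts smaller differences would not be called. Of 157 genes with at least 10 junctions over the 3 libraries, 0 (0%) passed Fisher's exact test with Benjamini-Hochberg adjustment against etoposide replicate 2, 6 had an unadjusted p under 0.05 (4 higher and 2 lower), and the limma fit below called 8. Against etoposide replicate 1, 1 gene passed (0.637%), which was Usp18. Between the etoposide replicates 1 gene passed as well (0.637%). The median log2 odds ratio over the 157 was 0.00 against replicate 2 and 0.20 against replicate 1. The constant added to the counts raises ratios against the deeper replicate 1 even at equal shares, and its part in the 0.20 was not tested. Of these genes 62 (39.5%) had a share above both etoposide libraries. The list had 3 members among the 157, Zc3hav1, Usp18 and Parp11. Usp18 and Parp11 reached 10 junctions only with those of IFN with etoposide. No summary over the 3 is therefore given, and the call of Usp18 against replicate 1 is a description only.

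A limma fit with voom weights, in which the lone library is assumed to vary like the etoposide libraries, called 8 of 157 genes (5.10%), 2 of them higher (1.27%) and 6 lower (3.82%). The genes called higher were Usp18 (log2 fold change 2.80 ± 0.73 SE) and Etnk1 (1.52 ± 0.49 SE), which codes for an ethanolamine kinase. Usp18 entered the fit only through its junctions in IFN with etoposide, so its call is a description only. Etnk1 had 16 junctions in IFN with etoposide, 6 in etoposide replicate 2 and 17 in etoposide replicate 1, or 4.87, 1.82 and 1.65 per 1000 prey. The genes called lower, Klhl42, Mtss1, Trio, Blnk, Ebf1 and Fam13a, all had 0 junctions in IFN with etoposide. Their fitted changes therefore depend on the fit's prior count. They reached the minimum of junctions through the etoposide libraries alone, so these calls are a description only. Klhl42 had 5 and 12 junctions in etoposide replicates 2 and 1, or 1.25 per 1000 prey in the pooled etoposide libraries. Taking 3 junctions as the limit that 0 allows, IFN with etoposide could hold up to 0.913 per 1000 prey. The etoposide count has counting error as well, so no smallest fold is given. For the other 5 the pooled rate was below that limit. They include the B-cell adaptor gene Blnk (3 and 7) and the B-lineage transcription factor gene Ebf1 (2 and 8). The number and direction of calls moved with the settings. There were 0 with library size taken from junctions near the bait (also 0 at an unadjusted p under 0.05) and 3 without voom weights, 1 higher and 2 lower. With at least 5 junctions per gene 6 of 451 genes were called, 6 higher and 0 lower, and with at least 20 junctions 1 of 49 was called, which was higher.

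**Figure D4:**
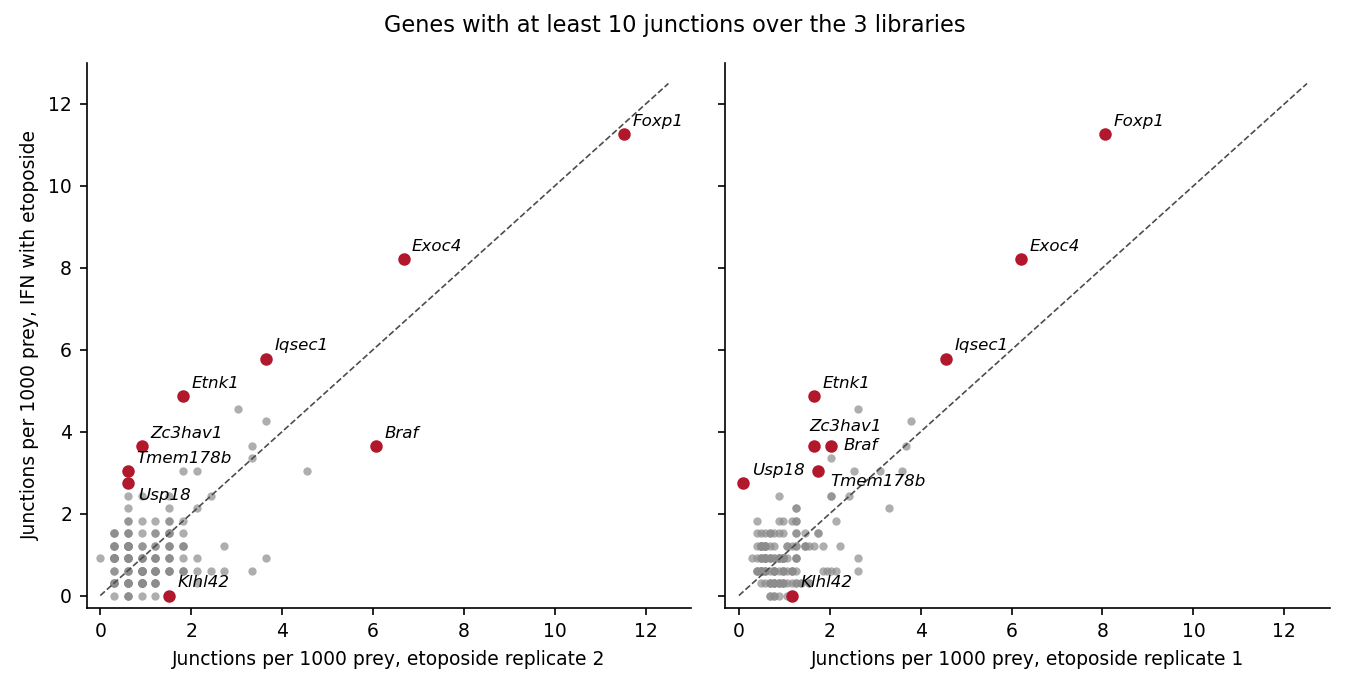
Junctions per 1000 prey outside antigen receptor loci for the 157 genes with at least 10 junctions over the 3 libraries. IFN with etoposide is on the vertical axis, against etoposide replicate 2 (left) and replicate 1 (right), and the dashed line marks equal shares. Foxp1 leads in all 3 libraries, and Usp18 lies above the line in both panels.

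The genes most often joined were largely shared. Foxp1, a transcription factor of B-cell development, led in IFN with etoposide with 37 junctions, against 38 and 83 in etoposide replicates 2 and 1, or 11.3, 11.5 and 8.05 per 1000 prey. The exocyst gene Exoc4 had 27, 22 and 64 junctions, and Iqsec1, an exchange factor for ARF GTPases, had 19, 12 and 47. Snd1 (15, 10 and 27), Itpr2 (14, 12 and 39), Fam3c (12, 11 and 38), Braf (12, 20 and 21) and Itpr1 (11, 11 and 21) completed the 10 leading genes with Etnk1 and Zc3hav1. All 10 are on chromosome 6, the bait chromosome. Among the genes with the largest odds ratios against replicate 2 were Tmem178b (10, 2 and 18 junctions), Usp18, and, with equal ratios, Kbtbd2 (5, 1 and 5), Wdr91 (5, 1 and 10) and Wee2 (5, 1 and 13). Hilpda (3, 0 and 8) had 0 junctions in replicate 2, so its ratio depends on the constant added to the counts. Usp18, Kbtbd2 and Hilpda reached the minimum of junctions only with those of IFN with etoposide, so their high ratios are a description only. Ica1 was among the lowest, with 1, 7 and 6. None of these passed the test against replicate 2.

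Genes upstream in the pathway, those of interferon receptors and JAK-STAT signalling, were not joined more often. Their 32 members held 7 of 3287 prey in IFN with etoposide, 7 of 3296 in etoposide replicate 2 and 51 of 10307 in etoposide replicate 1, with ratios of 1.00 (95% interval 0.352 to 2.86) and 0.430 (0.196 to 0.947). Of the 17 members joined in any of the 3 libraries, 3 were above both etoposide libraries and 2 below both. Irf5 had 3, 1 and 13 junctions, the phosphatase gene Ptpn6 had 1, 2 and 14, and Jak2 had 1, 1 and 2.

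The other gene lists showed no ratio whose interval left out 1 against replicate 2. B-lineage genes had 59, 69 and 154 junctions in IFN with etoposide and etoposide replicates 2 and 1 (ratio against replicate 2 of 0.857, 95% interval 0.608 to 1.21), and 9 of 35 joined members lay above both and 8 below both. Leukaemia translocation genes had 83, 92 and 216 (0.905, 0.675 to 1.21). They share Foxp1, Pax5, Ebf1, Ikzf1, Runx1, Tcf3, Bcl6 and Bcl11a with the B-lineage list, so the ratios of these lists are not independent. Immediate-early genes had 7, 5 and 19, p53 targets 5, 5 and 14, and topoisomerase, cohesin and loop anchor genes 5, 7 and 9. Highly expressed housekeeping genes had 6, 2 and 18 (3.01, 0.608 to 14.9). Long neural genes, which are little transcribed in B cells, had 12, 21 and 49 over 49.9 Mb. Markers of other blood lineages had 0, 1 and 2 junctions.

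**Figure D5:**
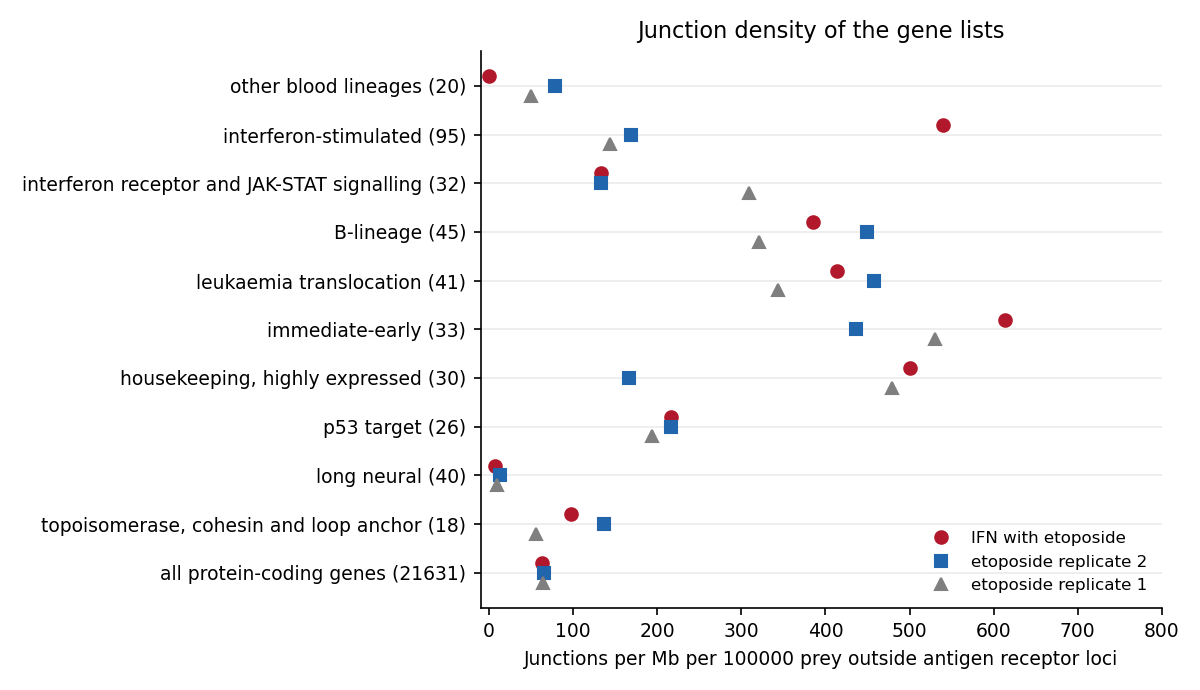
Junctions per Mb per 100000 prey outside antigen receptor loci, for 10 gene lists and all protein-coding genes, with the number of genes in brackets and 1 point per library. Interferon-stimulated genes stand at 540 in IFN with etoposide against 168 and 143 with etoposide alone, and all protein-coding genes lie between 63.2 and 64.9. In IFN with etoposide, immediate-early genes stand at 613 and highly expressed housekeeping genes at 501.

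Joining to the rest of the genome as a whole depended on which control was used. Prey made up 52.97% of junctions in IFN with etoposide (95% interval 51.8 to 54.2), 48.1% in etoposide replicate 2 and 89.8% in etoposide replicate 1. Scaled to 1000 near-bait junctions, the non-receptor prey came to 1022, 821 and 8604. The ratio was 1.24 (1.16 to 1.33) against replicate 2 (Fisher's exact test, adjusted p = 9.30e-10 over 18 tests) and 0.119 (0.110 to 0.128) against replicate 1. The etoposide libraries averaged 4712 ± 5503 (SD, n = 2) and differed 10.5-fold from each other, so the library with IFN lay between them and the exact permutation test gave p = 1. Etoposide replicate 1 was sequenced in another run and had longer prey alignments, with a median of 271 bp against 77 bp in IFN with etoposide and 75 bp in replicate 2. Their part in the gap was not tested.

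Antigen receptor loci, which the RAG nuclease cuts in arrested pre-B cells, took 104 prey per 1000 junctions near the bait in IFN with etoposide, 106 in etoposide replicate 2 and 177 in etoposide replicate 1. The ratio was 0.984 (95% interval 0.846 to 1.14) against replicate 2 and 0.589 (0.490 to 0.708) against replicate 1. All 335 such prey in IFN with etoposide were in the immunoglobulin kappa locus, chr6:67555636-70726754. Of kappa prey, 58.5% were within 1 kb of a V segment and 7.16% of a J segment, against 59.5% and 5.92% in etoposide replicate 2. Igkv6-32 led with 22 junctions, against 35 and 8.

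The distribution over chromosomes and gene parts was close to that with etoposide alone. Chromosome 6 took 39.0% of prey outside antigen receptor loci (95% interval 37.4 to 40.7), against 37.9% and 37.6%. The difference from replicate 2 was 1.11 percentage points (-1.24 to 3.46). Off chromosome 6, 66.4% of prey lay in gene bodies, against 67.8% and 67.2%, and 31.2% lay within 5 kb of a gene end, against 30.2% and 29.5%. Plus-strand prey off chromosome 6 made up 50.7%, 50.3% and 49.9%. None of these 4 shares passed the test against either control. Among 20 chromosomes, 0 (0%) differed in Fisher's exact test from replicate 2 and 0 (0%) from replicate 1, with 1 at an unadjusted p under 0.05 in each, and limma was not run on chromosomes. Between the etoposide replicates, chromosome 16 passed (5.00% of 20).

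In 1-Mb bins, which also cover junctions outside genes, 0 of 456 (0%) passed Fisher's exact test against replicate 2, 0 (0%) against replicate 1 and 0 (0%) between the etoposide replicates. At an unadjusted p under 0.05 there were 17, 15 and 18, and limma was not run on bins. The bin that holds Usp18, chr6:121000001-122000000, had 26, 10 and 31 junctions, with a log2 odds ratio of 1.35 and 1.41 (Fisher's exact test, adjusted p = 1 and 0.217). Exact positions were hardly shared: 3 of 3279 positions in IFN with etoposide recurred in etoposide replicate 2 and 2 in etoposide replicate 1. At the level of genes, 487 of the 1603 genes joined in IFN with etoposide (30.4%) were joined in etoposide replicate 2, which was 29.7% of the 1642 there.

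The junctions themselves carried slightly more microhomology, the bases that bait and prey share at the junction and that alternative end joining uses. It was present in 87.3% of prey junctions in IFN with etoposide (95% interval 86.1 to 88.4), 85.0% in etoposide replicate 2 and 85.2% in etoposide replicate 1. The difference was 2.30 percentage points (0.633 to 3.97) against replicate 2 and 2.04 (0.711 to 3.37) against replicate 1 (Fisher's exact test, adjusted p = 0.0168 and 0.00993). With prey alignments of at least 50 bp it was 2.06 points against replicate 2 and no longer passed. Overlaps of 4 bases or more made up 34.9%, 31.7% and 38.0% of junctions in the 3 libraries, so IFN with etoposide lay between the controls there. Inserted bases were found in 2.71%, 3.28% and 3.76%, a difference of -0.57 points (-1.39 to 0.25) against replicate 2 and -1.06 (-1.72 to -0.39) against replicate 1, with adjusted p = 0.316 and 0.00993 in Fisher's exact test. The bait end lay a median of 70 bases before the bait break position in IFN with etoposide, 60 in etoposide replicate 2 and 51 in etoposide replicate 1.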

How the data were processed

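Genomic DNA of 10 libraries was sequenced on the Illumina MiSeq and analysed with the standard pipeline of the assay, per the labels' protocols. Each row of the deposited tables is a junction, listed with where it maps, its orientation and its read, per the file headers, and no value is normalized. As builds, mm10 and GRCm38.p2 appear in the submitters' processing notes, and bedtools as a tool. The settings of the pipeline, and whether repeated reads were removed, are not given in the sources used here.

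Libraries held 2038 to 13399 junctions on chromosomes 1 to 19 and X, all counted once each. Runs were told apart by read name. Genes were protein-coding genes of RefSeq (GRCm38.p6) with 2 kb on each side, and where genes overlapped the one with the nearest end was taken. Receptor loci were runs of 10 or more immunoglobulin or T-cell receptor segments no more than 1 Mb apart. Microhomology and insertions were read from the ends of the bait and prey alignments in the read.

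The two-sided exact test of Fisher was applied to pairs of libraries, and so compares libraries and not conditions. Adjustment was by Benjamini-Hochberg over 9 measures and 2 controls, or over all genes, bins or chromosomes tested, with a threshold of 0.05. Rates per junction near the bait carry log-scale intervals from both counts. A fit across all 3 libraries used limma 3.58.1 (R 4.3.3), where library size was the number of non-receptor prey. Other work used Python 3.11.15 and scipy 1.17.1. Both tests were run on simulated counts that held counting error only. There Fisher's exact test against etoposide replicate 2 recovered 6 of 65 genes raised 4-fold, with 0 false calls. At 16-fold it recovered 159 of 174, with 4 false calls. The limma simulation held no spread between libraries. It therefore cannot test whether the lone library varies like the etoposide libraries, and its recovery is not given. Named genes were the 10 with the most junctions in IFN with etoposide, the 5 each way with the largest odds ratio among genes tested, up to 4 members of each list, and joined interferon-stimulated genes on chromosome 6. Genes called by limma and list members with small counts were named after their values were seen. The members, lists and tests were chosen with earlier results of these data known. Alternatives changed the control, repeated positions, alignment length, distances, gene window, library size, weights and the minimum of junctions. One list member is not reported here by name and is not plotted, but is counted in the totals.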

Additional observations from a re-analysis of the deposited data

How the results depend on the processing

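Of 73 alternatives over 15 results, 56 were classed as unchanged. For tested measures this meant the same direction and side of the threshold. The limma counts were classed by number alone, so 1 of them is among the 56 although its direction turned. The interferon-stimulated share had no test and so no threshold. All of its alternatives were classed as unchanged, with ratios from 2.72 without chromosome 6 to 3.76 against etoposide replicate 1. With etoposide replicate 2 left out, the difference in prey share turned from 4.86 to -36.8 percentage points and the ratio of prey per junction near the bait from 1.24 to 0.119, and with both controls pooled they were -20.2 and 0.392. The antigen receptor ratio became 0.589 and 0.852 under these settings and passed the threshold. It turned to 1.05 with alignments of at least 50 bp and to 1.01 with near-bait junctions limited to 20 kb, neither of which passed. The difference in inserted bases passed without etoposide replicate 2 (-1.06 points) and with pooled controls (-0.94). The gene end share turned to -0.38 points at 2 kb, and the microhomology difference with alignments of at least 50 bp was 2.06 points and did not pass. The cause was not tested. Genes called by Fisher's exact test numbered 1 without etoposide replicate 2 and 1 with pooled controls. The limma count of 8 became 0 with junctions near the bait as library size, 3 without voom weights (1 higher, 2 lower) and 1, higher, with at least 20 junctions per gene. With at least 5 junctions per gene it was 6, and the balance turned from 2 higher and 6 lower to 6 higher and 0 lower. The median log2 fold change of the genes fitted was 0.14, or 0.00 when etoposide replicate 1 was left out and 0.20 when etoposide replicate 2 was. The constant added to the counts raises fold changes against the deeper replicate 1, and its part in these medians was not tested. No paired analysis was possible because IFN with etoposide is 1 library without a replicate number, so the groups compared share fewer than 2 numbers. Depth limits single genes: most interferon-stimulated genes rest on 0 to 2 junctions per library.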

Other observations

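Off chromosome 6, the 2 kb downstream of listed gene starts took 8.88% of prey in IFN with etoposide (exact 95% interval 7.67 to 10.2), 7.87% in etoposide replicate 2 and 7.59% in etoposide replicate 1. The 2 kb upstream took 2.79% (2.12 to 3.61), 3.71% and 3.58%. Starts were listed for 17274 of 21631 protein-coding genes, and these shares were not tested.

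Along chromosome 6, prey between 1 and 10 Mb from the bait toward the centromere made up 15.3% of prey on the chromosome in IFN with etoposide (95% interval 13.4 to 17.4), 13.4% in etoposide replicate 2 and 13.1% in etoposide replicate 1. Prey more than 50 Mb away toward the telomere made up 38.9%, 39.9% and 40.4%. These shares were not tested.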
